A study of Mus musculus with 19 samples.

Results

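The macrophage and myeloid module is a list of 34 genes that mark macrophages and related cells of the innate immune system. It was followed here through mouse ovaries that had lost the Hedgehog ligands Dhh, Ihh or both. Members were taken by gene symbol, each through the probe set annotated to that gene alone with the highest mean log2 signal over all arrays. All 34 were among the 18193 genes measured in this way, and 31 lay above the filter on low signals and were tested among 12381 genes. Cd14, Cd86 and Itgam lay under the filter. RNA of whole ovaries from mice aged 2 months was hybridized to 19 Affymetrix Mouse Genome 430 2.0 arrays. The controls, 8 arrays, came from mice heterozygous for Ihh and for Dhh. The mutants were 4 arrays labelled Dhh KO, 4 labelled Ihh KO and 3 of the Dhh/Ihh double knockout (DKO). The labels describe the deletion as ovary-specific. They give neither the Cre driver nor the other gene's genotype in the single knockouts, and they do not say whether arrays of a group came from separate animals, so p-values measure the spread between arrays, which may be technical. The comparisons ask what loss of each ligand, and of both, does to the macrophage genes of the adult ovary. Each mutant group was read against the controls of its own hybridization set, controls 1 to 4 for DKO and controls 5 to 8 for the single knockouts. The labels do not mention these sets. In whole-ovary RNA, fewer cells of a type and less RNA per cell cannot be told apart.

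Macrophages depend on the cytokine CSF1 and its receptor CSF1R, and the transcription factor PU.1, encoded by Spi1, drives much of their gene expression. In the ovary they lie in the stroma and theca, around vessels, in follicles undergoing atresia and in corpora lutea, where they clear dying cells and take part in tissue remodelling. Tissue-resident macrophages of many organs carry the scavenger receptor CD163, the mannose receptor MRC1, the folate receptor FOLR2 and the clotting factor subunit F13A1. These 4 members, called resident-type here, were contrasted with the rest of the list. Dhh and Ihh are made by granulosa cells and act on theca and stromal cells.

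The promoter sequences of 5 members are printed as examples. Cd163 and F13a1 are the resident-type genes with the largest differences from controls. C1qb, C1qc and Cd53 were taken from the rest of the list. Each run holds the 250 bases before the annotated start, 5' to 3' on the gene's strand, from RefSeq (GRCm38.p6). Capitals mark GAGGAA, the core letters bound by PU.1, or its reverse complement TTCCTC. Cd163 lies at chr6:124304401-124304650, plus strand. F13a1 lies at chr13:37050245-37050494, minus strand, C1qb at chr4:136886201-136886450, minus strand and C1qc at chr4:136892915-136893164, minus strand. Cd53 lies at chr3:106790150-106790399, minus strand.
Cd163: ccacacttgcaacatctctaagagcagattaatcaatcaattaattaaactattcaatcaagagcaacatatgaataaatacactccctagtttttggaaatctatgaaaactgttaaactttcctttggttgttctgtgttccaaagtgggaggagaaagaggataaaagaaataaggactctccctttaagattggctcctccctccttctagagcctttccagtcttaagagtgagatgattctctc
F13a1: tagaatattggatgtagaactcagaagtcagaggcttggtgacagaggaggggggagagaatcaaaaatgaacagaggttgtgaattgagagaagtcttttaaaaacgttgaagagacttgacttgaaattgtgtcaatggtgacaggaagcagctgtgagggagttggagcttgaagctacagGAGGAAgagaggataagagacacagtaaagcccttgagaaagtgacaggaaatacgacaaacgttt
C1qb: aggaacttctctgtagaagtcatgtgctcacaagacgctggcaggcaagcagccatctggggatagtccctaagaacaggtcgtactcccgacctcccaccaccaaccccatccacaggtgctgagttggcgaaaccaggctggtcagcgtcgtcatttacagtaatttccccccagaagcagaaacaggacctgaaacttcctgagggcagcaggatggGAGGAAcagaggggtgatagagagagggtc
C1qc: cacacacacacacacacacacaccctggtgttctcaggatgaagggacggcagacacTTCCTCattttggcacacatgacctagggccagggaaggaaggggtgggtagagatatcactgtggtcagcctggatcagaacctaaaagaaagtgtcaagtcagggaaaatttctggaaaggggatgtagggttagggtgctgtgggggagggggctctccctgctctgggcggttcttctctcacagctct
Cd53: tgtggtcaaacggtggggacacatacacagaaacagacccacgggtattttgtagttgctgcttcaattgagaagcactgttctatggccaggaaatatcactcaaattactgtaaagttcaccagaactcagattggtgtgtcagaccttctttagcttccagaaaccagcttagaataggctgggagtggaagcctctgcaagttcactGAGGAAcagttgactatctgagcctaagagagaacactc
The match in F13a1 began 66 bases before the start, in C1qb 30, in C1qc 193 and in Cd53 39, and the Cd163 window held 0 matches. Of the 34 members, 25 had a promoter window, 32 windows in all. A match on either strand stood in 16 of these windows (50.0%), against 7639 of all 32851 windows of the same length (23.3%). By gene, 14 of 25 members held a match, 2 of the 4 resident-type genes (F13a1 and Mrc1) and 12 of 21 others. C1qb, C1qc and Cd53 all held a match, so the printed windows do not show that share. A match is a description of the letters, not a binding site, and no test was made of the difference.

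The arrays were read first for signs that could touch the members. The deposited signals are scaled to a trimmed mean of 500, and array medians ran from 101 to 159.8. The 3' to 5' ratio of the BioC hybridization control was 0.987 to 1.06 on the arrays of the first set and 0.685 to 0.781 on those of the second. The 3' to 5' ratio of Gapdh, which rises as RNA is degraded, was 1.69 to 1.80 in controls 1 to 4 and 1.68 to 1.78 in DKO. It was 1.89 to 2.01 in controls 5 to 8, 2.08 to 2.79 in Dhh KO and 1.90 to 2.37 in Ihh KO, so it was higher in Dhh KO than in its controls on every array. The part of RNA integrity in the Dhh KO values was not tested. Signals of Dhh, the first targeted gene, ran from 606 to 1371 on control arrays and from 527 to 709 on Ihh KO 1 to 3. In Dhh KO they ran from 5.14 to 25.4, and in DKO from 3.85 to 14.2. The array labelled Ihh KO 4 read 2.96 for Dhh, which goes against its label, and 108 for Ihh. Ihh KO 1 to 3 read 12.5 to 43.5 for Ihh, DKO 36.3 to 52.7 and controls 139 to 425. Dhh KO read 107.7 to 167.8, so for both ligands Ihh KO 4 read like the Dhh KO arrays. Results that use the Ihh KO group are therefore given with and without that array.

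The macrophage genes varied between control arrays, and most of them were high or low on the same arrays. Among controls 1 to 4 the highest array exceeded the lowest by a median of 1.94-fold over the 31 tested members, against 1.36-fold over all tested genes. Among controls 5 to 8 the medians were 2.02-fold and 1.38-fold. Control 2 was the highest of its set for 27 of 31 members and control 6 for 21. Control 4 was the lowest of its set for 20 members and control 8 for 23. Controls 1 and 5, 2 and 6, 3 and 7, and 4 and 8 deviated together across all genes (r = 0.54, 0.75, 0.69 and 0.77, across genes, which are not independent replicates), and the labels do not say whether they came from 8 separate sources of RNA. The corpus luteum genes moved on the same arrays. Their level, the median log2 difference from the set's control mean over 3 tested genes, was 2.35 on control 2 and 2.18 on control 6, and -3.49 on control 4 and -2.94 on control 8. The level of all tested members was 0.50 and 0.43 on controls 2 and 6 and -0.40 and -0.42 on controls 4 and 8. The level of the resident-type genes was highest on control 3 in the first set (0.45) and on controls 7 and 6 in the second (0.23 and 0.22). It was lowest, like that of all members, on controls 4 and 8 (-0.23 and -0.35). The part of the corpus luteum in the members' values was not tested.

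**Figure D1:**
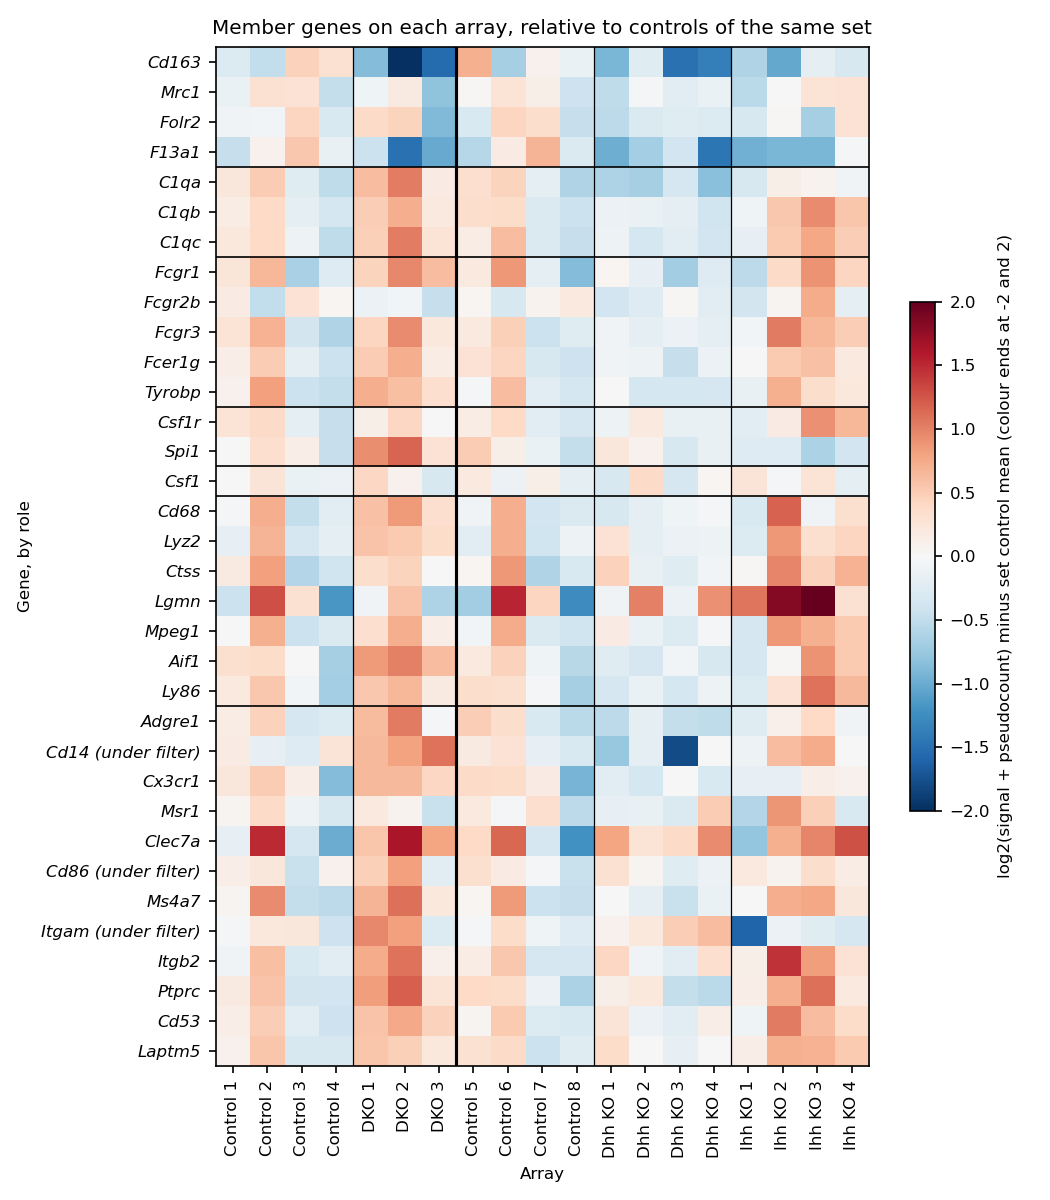
Heat map of the 34 members (rows, grouped by role) on the 19 arrays (columns, grouped; the thick line separates the hybridization sets). Colour is log2(signal + 7.02) minus the mean of the controls of the same set; controls 2 and 6 are mostly red, controls 4 and 8 mostly blue, and Cd163 and F13a1 are blue on all DKO arrays while most other genes are red there.

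Ovaries without both ligands had a low Cd163 signal, while most other macrophage genes read higher than in controls without passing the test one by one. Of the 31 tested members, 1 was called in DKO (limma, adjusted p under 0.05), against 3.02% of all tested genes (374 of 12381). In the lower direction the share was 1.45%, and in the higher direction, with 0 members called, 1.57%. The called member was Cd163, which fell by 1.58 on the log2 scale. Of the 27 tested members that are not resident-type, 24 stood above controls 1 to 4 and 3 below, with a median log2 change of 0.55. All 4 resident-type genes stood below, with a median of -0.60. Over all tested genes the median was 0.02, and 54.1% stood above.

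Cd163 encodes the receptor by which macrophages take up haemoglobin bound to haptoglobin. Its signal was 177, 151, 299.8 and 268 on controls 1 to 4 and 115, 36.8 and 69.5 on the DKO arrays. Every DKO array lay below every control of the set, and DKO 2 was lowest. The group means were 224 ± 71.3 (SD, n = 4) and 73.9 ± 39.5 (n = 3), and the log2 change was -1.58 (SE 0.38, limma adjusted p = 0.028). Such a gap without overlap, in the lower direction, was found for 6.07% of all tested genes. Over 30 alternatives that tested Cd163 its change lay between -1.94 and -1.20, with limma adjusted p from 0.0033 to 0.16. It was called in 23. These include every alternative without an array of the other hybridization set, which cannot move this change and left it at -1.58. The mean of probe sets could not move it either, since Cd163 has a single probe set. Among the arrays that enter the change, the call held without DKO 1, without control 1 and without control 2. The call was lost without DKO 2 (-1.20, adjusted p = 0.16), without DKO 3 (0.088), without control 3 (0.096) and without control 4 (0.0503). It was also lost with quantile normalization (0.077), with only the arrays of the set (0.10) and with the replicate number as a block (0.057).

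F13a1, the catalytic subunit of clotting factor XIII and a marker of resident macrophages and monocytes, read 97.5, 145, 201 and 122 on controls 1 to 4. It read 99.9, 44.2 and 64.7 in DKO. DKO 2 and DKO 3 lay below every control, while DKO 1 overlapped them, and the log2 change was -0.97 (SE 0.34, limma adjusted p = 0.15). F13a1 was called where all 8 controls were taken as 1 group (-1.23, adjusted p = 0.032).

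The remaining resident-type genes showed no such gap. Mrc1, an endocytic receptor for mannose-bearing glycoproteins, read 466, 635, 629.5 and 367 on controls 1 to 4 and 483, 583 and 291 in DKO. Folr2, a folate receptor, read 72.0, 73.0, 105 and 60.3 on the controls and 102, 106 and 38.2 in DKO. DKO 3 was the lowest array for both genes, and the other DKO arrays lay within or just above the control range. The log2 changes were -0.23 (SE 0.25, adjusted p = 0.72) and -0.01 (SE 0.32, adjusted p = 0.99). The low resident-type median in DKO therefore rests on Cd163 and F13a1.

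**Figure D2:**
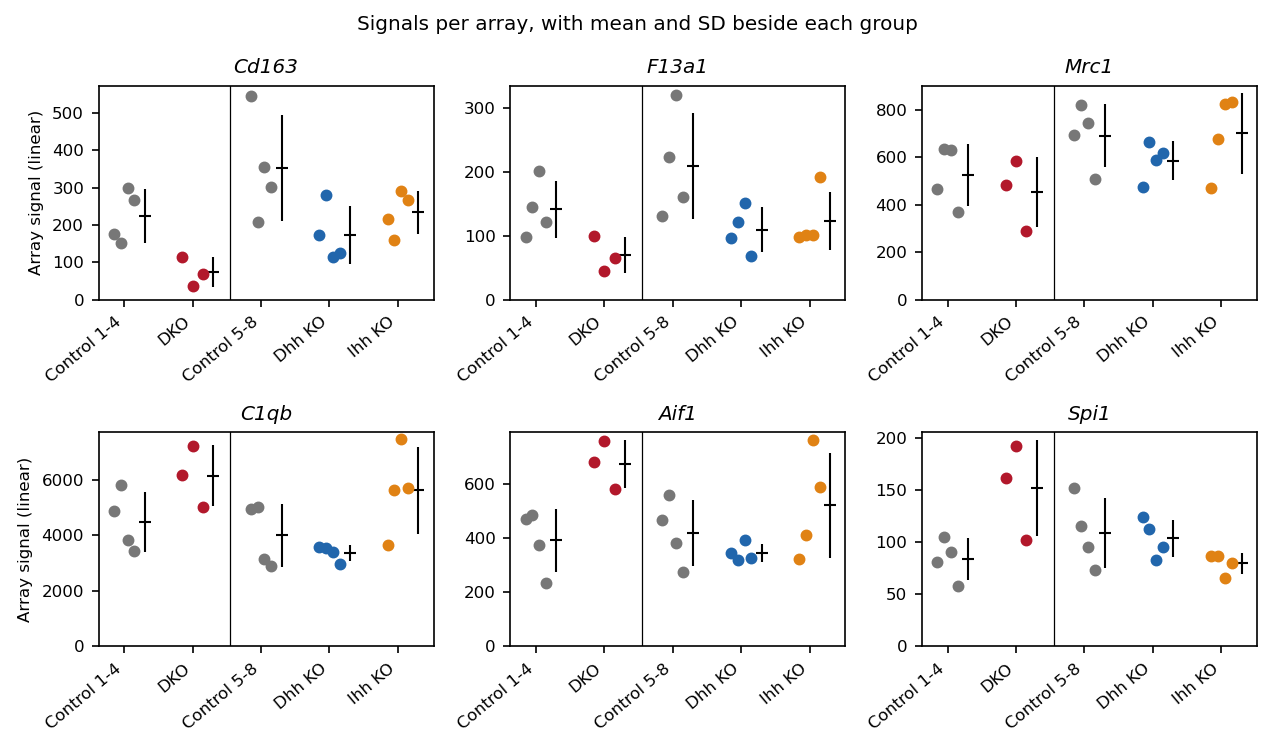
Linear array signals of 6 members (one panel each; points are arrays, bars beside them the mean and SD, and the vertical line separates the hybridization sets). All 3 DKO points of Cd163 lie below the points of controls 1 to 4, and all 3 of Aif1 lie above them, while the groups overlap for F13a1, Mrc1, C1qb and Spi1.

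C1qa, C1qb and C1qc encode the chains of C1q, the recognition protein of the classical complement pathway, which tissue macrophages produce. C1qa read 651, 789.6, 468 and 389 on controls 1 to 4 and 854, 1126 and 623 in DKO. C1qb read 4869, 5793, 3811 and 3411 on the controls and 6166, 7220.3 and 5017 in DKO. For each gene DKO 1 and DKO 2 lay above every control, and DKO 3 overlapped them. The log2 changes were 0.60 (SE 0.26) for C1qa, 0.47 (SE 0.23) for C1qb and 0.59 (SE 0.26) for C1qc, with limma adjusted p of 0.26, 0.33 and 0.27.

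Among the Fc receptors, which bind antibody-coated particles, and the signalling adaptors Fcer1g and Tyrobp, 4 of 5 stood above the controls. Fcgr1, the high-affinity receptor, stood at a log2 change of 0.68, Fcgr3 at 0.53, Tyrobp at 0.56 and Fcer1g at 0.46. The exception was Fcgr2b, the inhibitory receptor, at -0.22. None passed the test, with limma adjusted p of 0.32 or more. Sequences of the Fc receptor genes are related, and cross-hybridization between them was not tested.

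Among Csf1, Csf1r and Spi1, Spi1 had the largest change in DKO. Csf1, the ligand, read 321, 383, 291 and 296 on controls 1 to 4 and 429, 343 and 257 in DKO, a log2 change of 0.06 (SE 0.19, limma adjusted p = 0.92). Csf1r, its receptor, read 2191, 2369, 1603 and 1311 on the controls and 1963, 2417 and 1807 in DKO, a change of 0.17 (SE 0.24, adjusted p = 0.80). DKO and control arrays overlapped for both on the probe sets used. Their other probe sets above the filter stood at 0.33 and 0.39 for Csf1r and at 0.27, -0.20 and 0.18 for Csf1. Spi1 read 80.7, 105, 90.3 and 57.5 on the controls and 162, 193 and 102 in DKO. DKO 1 and DKO 2 lay above every control and DKO 3 below control 2, and the change was 0.80 (SE 0.26, adjusted p = 0.11).

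Of the lysosomal and effector genes, Aif1 differed without overlap. It encodes IBA1, an actin-binding protein used as a macrophage stain. Aif1 read 469, 486, 373 and 234 on controls 1 to 4 and 681, 759 and 581 in DKO, so every DKO array lay above every control. The log2 change was 0.82 (SE 0.28, limma adjusted p = 0.135). Aif1 was the single tested member without overlap in the higher direction, a pattern shown by 7.08% of all tested genes. Cd68, a lysosomal glycoprotein, stood at 0.59, Lyz2, the macrophage lysozyme, at 0.48, Ly86, the partner of a Toll-like receptor homologue, at 0.46 and Mpeg1, a pore-forming protein, at 0.40. Ctss, a protease of antigen processing, stood at 0.27 and Lgmn, an asparagine-specific protease, at -0.04. Lyz2 has a close copy, Lyz1, whose transcripts may bind the same probes, which was not tested.

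Of the 9 tested surface receptors and pan-leukocyte genes, 8 stood above the controls. Clec7a, a receptor for fungal glucans, stood at a log2 change of 0.99 (SE 0.58), and Ptprc, the pan-leukocyte phosphatase CD45, at 0.77 (SE 0.31). Ms4a7 stood at 0.66, Itgb2, the leukocyte integrin beta chain, at 0.64, Cd53, a leukocyte tetraspanin, at 0.60, Cx3cr1, the fractalkine receptor, at 0.57, Adgre1, the F4/80 antigen, at 0.55 and Laptm5 at 0.42. Msr1, a scavenger receptor, stood at -0.06. None passed the test, with limma adjusted p of 0.22 or more in this group. Cd14, the co-receptor for bacterial lipopolysaccharide, lay under the filter: it read 85.4, 67.2, 62.1 and 92.6 on controls 1 to 4 and 123, 137 and 169 in DKO. Every DKO array lay above every control, and without the filter the change was 0.84 (adjusted p = 0.26). Itgam, the CD11b integrin, and Cd86, a co-stimulatory ligand, overlapped between the groups.

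The DKO arrays differed among themselves. DKO 2 was the highest of its group for 24 of 31 members, and DKO 3 was the lowest for 27. The corpus luteum level was 0.83, 1.25 and -2.34 on DKO 1 to 3, and its part in the members' values was not tested.

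Together, 6 of 31 members in the higher and 2 in the lower direction had an unadjusted limma p under 0.05 in DKO, against 8.92% and 7.17% of all tested genes. The 6 were Spi1, Aif1, Ptprc, Cd53, C1qa and C1qc, and the 2 were Cd163 and F13a1.

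**Figure D3:**
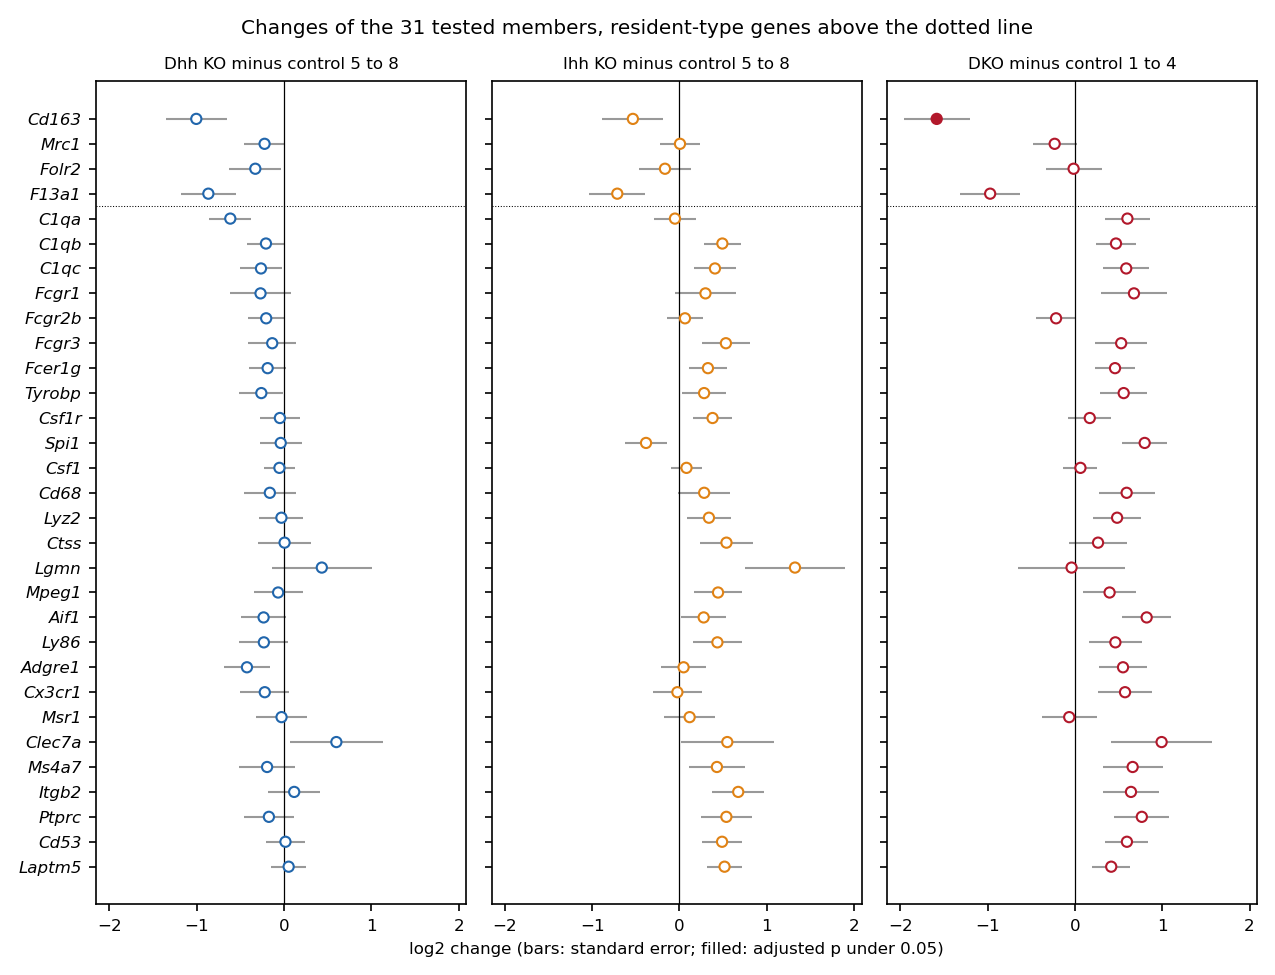
Log2 changes of the 31 tested members with standard errors in the 3 mutant groups (x axis), resident-type genes above the dotted line; a filled point has a limma adjusted p under 0.05. Cd163 in DKO is the only filled point, most other members lie right of 0 in Ihh KO and DKO, and in Dhh KO 25 of 31 lie left of 0. The Dhh KO and Ihh KO panels share controls 5 to 8.

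With Dhh alone lost no member passed the test, and the lowest values were those of Cd163 and F13a1. Of the 31 tested members 0 were called, and 0 of all 12381 genes (0.0%), Dhh itself included (lowest limma adjusted p over all genes 0.119). Without the array labelled Ihh KO 4, 1 gene was called (0.00808%), Dhh, which fell by 5.37 on the log2 scale (SE 0.32, adjusted p = 4.6e-08), and again 0 members. At an unadjusted p under 0.05 there were 0 members higher and 3 lower, against 4.06% and 6.05% of all genes (10.1% in either direction). They were Cd163, F13a1 and C1qa. Members stood higher than controls 5 to 8 in 6 cases and lower in 25, with a median log2 change of -0.19, against -0.03 over all genes, of which 43.7% stood above. The resident-type median was -0.60 and that of the other members -0.16.

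Cd163 read 546, 208, 355 and 303 on controls 5 to 8 and 173, 281, 113 and 125 in Dhh KO. Dhh KO 1, 3 and 4 lay below every control and Dhh KO 2 among them, and the log2 change was -1.01 (SE 0.35, limma adjusted p = 0.38). F13a1 read 131, 223, 319.9 and 161 on the controls and 96.8, 121, 151 and 68.2 in Dhh KO, with Dhh KO 3 overlapping, and stood at -0.87 on the log2 scale (SE 0.32, adjusted p = 0.39). C1qa read 609, 656, 423 and 316 on the controls and 311, 299.5, 379.9 and 266 in Dhh KO. Only Dhh KO 3 exceeded the lowest control, and the difference was -0.62 (SE 0.24, adjusted p = 0.41). No tested member differed without overlap in either direction, as 2.19% of all genes did in the higher and 3.27% in the lower. Clec7a (0.60), Lgmn (0.43) and Itgb2 (0.12) had the highest changes, and Csf1, Csf1r and Spi1 stood at -0.05, -0.05 and -0.04.

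For the list as a whole, Dhh KO arrays lay closer to each other than controls did. The level of all members was -0.10, -0.16, -0.24 and -0.14 on Dhh KO 1 to 4, while on controls 5 to 8 it ran from -0.42 to 0.43. The resident-type level varied alike in both groups, with an SD of 0.28 in Dhh KO and 0.29 in controls 5 to 8 (n = 4 each). Leaving out single arrays moved the median change between -0.32 (without control 8) and -0.04 (without control 6), so the size of the Dhh KO median depends on which controls are used.

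In the group labelled Ihh KO most members outside the resident-type genes stood above controls 5 to 8, and no member passed the test. These controls are also those of Dhh KO. The array labelled Ihh KO 4 read 2.96 for Dhh, so the group as labelled does not stand for loss of Ihh alone. Of the 31 members 0 were called, against 2 of all genes (0.0162%). At an unadjusted limma p under 0.05 there were 5 members higher (Lgmn, Laptm5, Itgb2, C1qb and Cd53) and 1 lower (F13a1), against 5.19% and 8.77% of all genes. For Laptm5 the probe set used stood at 0.52 and its others above the filter at 0.22 and 0.09. For C1qb these values were 0.49, and 0.22 and 0.19. Over the alternatives of processing, the Laptm5 change lay between 0.026 and 0.67. Members stood higher in 25 cases and lower in 6, with a median log2 change of 0.33, against -0.02 over all genes, of which 46.0% stood above. The resident-type median was -0.35 and that of the other members 0.38. Without the array labelled Ihh KO 4 the members stood higher in 24 cases and lower in 7, with medians of 0.30, -0.46 and 0.31 for all members, the resident-type genes and the others. In that fit 0 members were called, against 48 of all genes (0.388%). At an unadjusted p under 0.05 it had 3 members higher (Lgmn, Laptm5 and Itgb2) and 1 lower (F13a1). The share of all genes at that threshold is not given here for that fit, so these counts have no background beside them.

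No tested member differed from the controls without overlap in either direction, as 2.29% of all genes did in the higher and 3.99% in the lower. Lgmn had the highest log2 change, with signals of 284, 1344, 628 and 189 on controls 5 to 8 and 986, 1665, 1970.4 and 577 in Ihh KO. The groups overlapped, and the change was 1.32 (SE 0.57, limma adjusted p = 0.31). Leaving out Ihh KO 4 gave 1.66 (adjusted p = 0.19). Lgmn is also expressed outside macrophages, and on the controls it was highest where the corpus luteum level was highest. The corpus luteum genes stood at 2.30, 2.67, 2.82 and 0.26 for Ihh KO 1 to 4 and at 0.51, 2.18, 0.56 and -2.94 for controls 5 to 8, and their part in the members' values was not tested.

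C1qb read 4929, 5001, 3151 and 2878 on controls 5 to 8 and 3651, 5639, 7467 and 5685 in Ihh KO. Ihh KO 2 to 4 lay above every control and Ihh KO 1 among them, and the change was 0.49 (SE 0.22, limma adjusted p = 0.32). C1qc stood at 0.41 and C1qa at -0.05. Spi1 stood at -0.38 (SE 0.24, adjusted p = 0.49), with 87.0, 86.9, 65.5 and 79.5 in Ihh KO against 152, 115, 95.2 and 73.5 on the controls. Csf1r stood at 0.38 and Csf1 at 0.08 on the probe sets used. Their other probe sets above the filter read 0.26 and -0.58 for Csf1r and 0.06, -0.37 and -0.19 for Csf1.

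F13a1 and Cd163 were the lowest of the resident-type genes in Ihh KO. F13a1 read 97.8, 101, 101 and 191 on Ihh KO 1 to 4, so the first 3 arrays lay below every control and the array labelled Ihh KO 4 lay within them. Its change was -0.71 (SE 0.32, limma adjusted p = 0.33), and -0.93 without that array (adjusted p = 0.17). Cd163 read 217, 159, 291 and 266, a change of -0.53 (SE 0.35, adjusted p = 0.51), or -0.61 without that array. Mrc1 and Folr2 stood at 0.01 and -0.17, and at -0.09 and -0.32 without it, so that all 4 then stood below the controls. The array that went against its label was thus the highest of the group for F13a1, Folr2 and Mrc1.

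Ihh KO 1 stood apart for the rest of the list. It was the lowest of its group for 26 of 31 members, with a level of all members of -0.24, against 0.52, 0.62 and 0.30 on Ihh KO 2 to 4. Without Ihh KO 1 or another single array of the fit, the median member change in Ihh KO lay between 0.19 and 0.54.

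Set directly against each other, the group labelled Ihh KO stood above Dhh KO for nearly all members, without a call. Ihh KO minus Dhh KO was above 0 for 29 of 31 members, with a median of 0.47, against -0.01 and 48.7% above 0 over all genes. None was called, nor was any gene in the table (0.0%). At an unadjusted limma p under 0.05 there were 9 members, all higher in Ihh KO, against 6.29% of all genes higher, 5.34% lower and 11.6% in either direction. Those 9 were C1qa, C1qb, C1qc, Fcgr3, Fcer1g, Tyrobp, Ly86, Ptprc and Laptm5. The resident-type genes had a median of 0.20 and the others 0.51. Without the array labelled Ihh KO 4, 28 of 31 were above 0, the median was 0.48, and 0 members were called against 26 of all genes (0.21%). In that fit 7 members had an unadjusted p under 0.05. The share of all genes at the unadjusted threshold is not given here for that fit, so this count has no background beside it.

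For 5 members no Ihh KO array overlapped a Dhh KO array (5 of 31, against 2.59% of all genes in that direction). C1qb had Dhh KO signals of 3575, 3528, 3382 and 2943, all under the lowest Ihh KO array at 3651, and the difference was 0.70 (SE 0.22, limma adjusted p = 0.30). C1qa lay between 266 and 379.9 in Dhh KO and at 383, 522, 505 and 458 in Ihh KO, a difference of 0.56 (SE 0.24, adjusted p = 0.38). The gap between the nearest arrays was narrow for each gene. Fcgr3 read 293 to 319 in Dhh KO and 320.1, 694, 531 and 471 in Ihh KO, and Fcer1g 493 to 644 and 681, 974, 1024 and 778. Ms4a7, a membrane protein of the MS4A family, read 397 to 536 in Dhh KO and 539, 900.2, 926 and 634 in Ihh KO. Ihh KO 1 was the nearest array in all 5 genes. Itgam, under the filter, differed without overlap in the other direction, at 40.5 to 61.5 in Dhh KO and 7.81 to 34.2 in Ihh KO (3.14% of tested genes did so), where signals this low have little precision.

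Differences between the changes of the mutant groups, each against the controls of its own set, were tested in the same fit. No member passed the test: 0 of 31 for DKO against Ihh KO, where 0.396% of all genes were called, and 0 of 31 for DKO against Dhh KO, where 0.606% were. At an unadjusted p under 0.05 the first difference had 1 member higher and 0 lower, against 10.4% and 6.95% of all genes (17.4% in either direction), and the second 8 higher and 0 lower, against 9.78% and 6.36% (16.1% in either direction). The differences were above 0 for 17 and 25 of 31 members, against 55.8% and 56.4% of all genes. The DKO change of Spi1 exceeded that in Ihh KO by 1.18 (SE 0.35, limma adjusted p = 0.12). Leaving out Ihh KO 4 also gave 1.18 (adjusted p = 0.14). The DKO change of C1qa exceeded that in Dhh KO by 1.22 (SE 0.36, adjusted p = 0.11) and that of Aif1 by 1.06 (SE 0.38, adjusted p = 0.19). Cd163 differed by -1.05 from Ihh KO (adjusted p = 0.30) and by -0.58 from Dhh KO (adjusted p = 0.61). Where the controls that deviated together were given a shared correlation (0.65), Spi1 was called in the first (adjusted p = 0.036, with 5.63% of all genes called) and C1qa and Aif1 in the second (adjusted p = 0.013 and 0.039, with 5.43% called). With a replicate block shared by same-numbered DKO and Dhh KO arrays, chosen after seeing the data, 0 members were called in the second difference, against 1.77% of all genes.

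Array by array, the levels of the 4 resident-type members and of the other members separated in DKO. On DKO 1, 2 and 3 the level of the other members was 0.55, 0.73 and 0.21, and that of the resident-type genes -0.25, -0.65 and -0.94. The gap, resident-type minus other, was -0.80, -1.38 and -1.15, all below the 4 controls of the set (-0.53 to 0.68). In Ihh KO the gap was -0.40, -1.18, -1.11 and -0.21 and in Dhh KO -0.64, -0.12, -0.09 and -0.68, against -0.33 to 0.51 on controls 5 to 8. All DKO arrays, Ihh KO 1 to 3 and Dhh KO 1 and 4 lay below the range of their controls. The array labelled Ihh KO 4 lay within it, as did Dhh KO 2 and 3. No test was made of this gap. As above, the low resident-type median in DKO rests on Cd163 and F13a1. The level of 8 further resident-type genes outside the list was 0.11, -0.05 and -0.47 on DKO 1 to 3. On controls 1 to 4 it ran from -0.21 to 0.11, so DKO 1 and DKO 2 lay within that range.

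**Figure D4:**
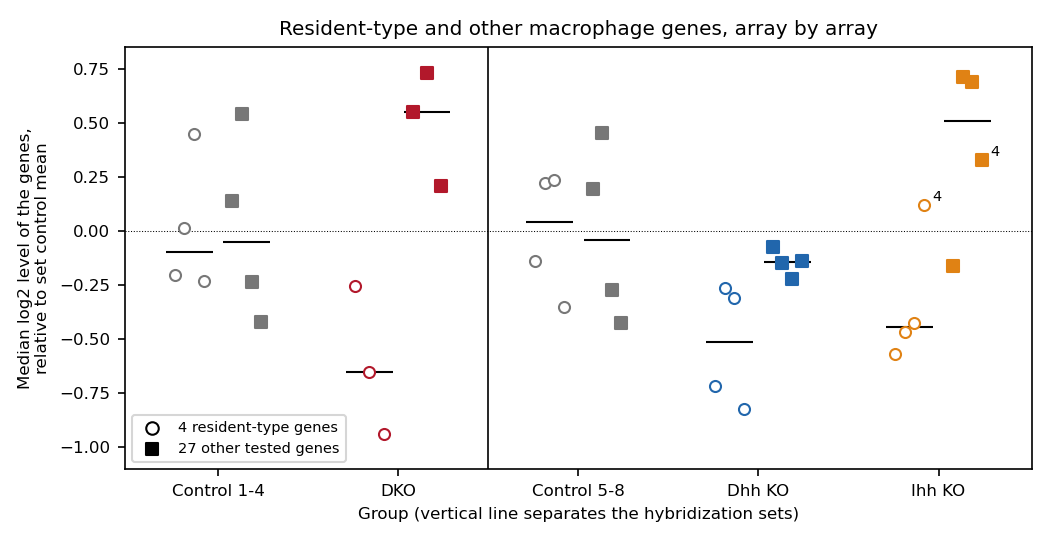
Level of the 4 resident-type genes (open circles) and of the 27 other tested members (squares) on each array: the median over genes of log2(signal + 7.02) minus the control mean of the set; bars are group medians, and 4 marks the array labelled Ihh KO 4. On every DKO array the circle lies below 0 and the square above it.

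Other genes of macrophage biology and of other cell types were read from lists chosen with earlier results of these data known. No gene of these lists was called in Dhh KO, in Ihh KO or between the single knockouts. In DKO, Csf2ra, a subunit of the GM-CSF receptor, was the 1 gene called of 9 tested in the list of the CSF1 axis and myeloid transcription factors (log2 change 0.58, limma adjusted p = 0.041), where the median was -0.03. Of 12 genes for uptake of dying cells, Tyro3, a receptor tyrosine kinase, was called (0.96, adjusted p = 0.013), and the median was 0.09. Of 6 other complement genes C2, a protease of the classical pathway, was called and fell by 1.44 (adjusted p = 0.0040), from 1067 ± 133 (SD, n = 4) to 392 ± 71.6 (n = 3). In that list 2 genes stood above the controls and 4 below, with a median of -0.24 and a highest change of 0.59. Of 5 monocyte and inflammatory genes tested, out of 15, Nos2, the inducible nitric oxide synthase, was called (1.15, adjusted p = 0.041). Here 4 stood above the controls and 1 below, at -0.52, and the median was 0.75.

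The 5 tested MHC class II genes, which present antigen, all stood above the controls in DKO (median 0.64) and in Ihh KO (median 0.78), and 0 were called in either. In Dhh KO 4 of 5 did, with a median of 0.11. Among 8 further resident-type macrophage genes 0 were called in DKO, with 3 above and 5 below the controls and a median of -0.12. Their log2 changes ran from -0.57 to 1.53. At an unadjusted limma p under 0.05, 2 stood higher and 1 lower, against 8.92% and 7.17% of all tested genes. Among 13 lysosomal genes 0 were called in DKO (median -0.07), and all 13 stood above the controls in Ihh KO (median 0.15).

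Markers of other cells passed the test in DKO. Of 3 tested mast cell genes 2 rose, Cma1 by 2.88 and Tpsb2 by 2.76 (limma adjusted p = 0.014 and 0.015), and the summed signal of the list was 1793 to 4634 in DKO against 345 to 808 in controls 1 to 4. Of 4 theca and steroidogenic genes 2 fell, Star by 1.79 and Cyp11a1 by 1.58 (adjusted p = 0.0074 and 0.043). Of 4 smooth muscle genes Acta2 and Myh11 fell, by 0.90 and 1.96 (adjusted p = 0.0034 and 0.0089), and of 5 endothelial genes Emcn fell by 0.98 (adjusted p = 0.0064). Fcer1g, Tyrobp, Ptprc, Laptm5 and Cd53 are also expressed by mast cells or other leukocytes. No neutrophil gene of 10 passed the filter, and only 1 each of 14 T and NK cell, 8 B cell and 9 dendritic cell genes did. The summed signal of the neutrophil list was 489 to 1183 in DKO against 102 to 339 in controls 1 to 4, on signals under the filter. In Ihh KO the tested T and NK cell gene stood at 0.31, 2.69, 1.73 and 0.51 on arrays 1 to 4, against -0.61 to 0.68 on controls 5 to 8 (mean log2 change 1.31). The summed signal of the mast cell list was 540 to 2056 there, against 412 to 946 in those controls. Of the members with an unadjusted p under 0.05 in Ihh KO, Itgb2, Laptm5 and Cd53 are expressed by leukocytes in general. The part of these cells in the members' values was not tested.

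The members' other probe sets gave a check on the probe sets used. Of 58 probe sets for the 34 genes, 14 weaker ones in 7 genes lay above the filter. Their change had the same sign as that of the probe set used in 12 of 14 in Dhh KO and in 11 of 14 in both Ihh KO and DKO. Those of the other sign belonged to Laptm5 in Dhh KO, to Csf1 and Csf1r in Ihh KO, and to Csf1, Fcgr2b and Msr1 in DKO. Cd163, F13a1, Mrc1 and Folr2 had a single probe set each, so their values rest on that probe set alone.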

How the data were processed

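The authors deposited 1 linear intensity per probe set and array for 45101 probe sets, 64 of them Affymetrix controls, produced with MAS5 (per the submitters' processing notes), whose version is not given in the sources used here. RNA was amplified from 50 ng with the WT-Ovation Pico system, per the labels' protocols. The deposited intensities were not normalized again; a pseudocount of 7.02, their 10th percentile, was added before taking log2. A single-gene annotation covered 34945 probe sets, 932 had several genes and 9211 none; symbols were looked up by Entrez identifier in RefSeq (GRCm38.p6), where 34741 matched. Genes under the 40th percentile of mean log2 values over probe sets (6.25, a signal of 69.3) were not tested. Groups were compared with limma 3.58.1 in R 4.3.3 (two-sided, lmFit, then eBayes with a trend) over all 19 arrays with 5 means, the controls of each hybridization set apart, and Benjamini-Hochberg adjustment over 12381 genes. The fit was tested on simulated data. All members were named; of other lists, the 2 called genes with the smallest p in a comparison. The members and lists were chosen with earlier results of these data known. Figures and tables used Python 3.11.15, pandas 2.3.3 and matplotlib 3.10.9. Arrays with the same number in controls 1 to 3 and DKO correlated in their deviations at 0.16, 0.27 and 0.07, so these were not taken as pairs. Same-numbered Dhh KO and DKO arrays correlated at 0.20, 0.13 and 0.18, and controls 1 to 4 and Dhh KO at 0.29, 0.098, 0.43 and 0.22; the numbers of Dhh KO and DKO, all over 0.1, were therefore also fitted as a random replicate block, chosen after seeing the data. Alternatives were quantile normalization, median centring, other pseudocounts and filters, the mean of probe sets, other control groupings, no trend, a replicate block and each array left out. The number of arrays limits the precision.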

Additional observations from a re-analysis of the deposited data

Results flagged for a closer look

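In groups of 4 arrays, the highest or lowest array was checked against the rest by its gap over the group's range, which flags about 1 in 20 groups by chance; 8 of 136 groups were flagged. On Dhh KO arrays, Csf1r read 1560.3 on Dhh KO 2 against 1222 to 1272 on the others, and Adgre1 read 153 on the same array against 119 to 123. Tyrobp read 1567 on Dhh KO 1 against 1230.0 to 1243, Fcer1g 493 on Dhh KO 3 against 623 to 644, and Msr1 213 on Dhh KO 4 against 120 to 133. On control 2, Lyz2 read 5967 against 2933 to 3300.3 and Clec7a 372 against 60.6 to 113. The array labelled Ihh KO 4 had an F13a1 signal of 191, and Ihh KO 1 to 3 had 97.8 to 101.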

How the results depend on the processing

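The count of members called in DKO was 1, and 0 with quantile normalization, the filter at the 60th percentile, only the arrays of the set compared or the replicate block; it was 2 with all 8 controls as 1 group, and 0 to 1 with single arrays left out. For the DKO effect minus the Ihh KO effect it was 0, and 4 with all 8 controls (20.7% of all genes called) or 1 with the correlation shared by matched controls (5.63%). For the DKO effect minus the Dhh KO effect it was 0, and 13 and 2 under the same alternatives, where 26.0% and 5.43% of all genes were called. Controls of the other set enter when all 8 are used, and the cause was not tested. At the 60th percentile filter 22 members were left, without Cd163, F13a1 and Folr2. The resident-type minus other difference then rested on Mrc1 alone, and was -0.060 in Dhh KO and -0.72 in DKO. With single arrays left out, the median change in Dhh KO lay between -0.32 and -0.044. Folr2 changed sign in Ihh KO with quantile normalization (0.025) and all 8 controls (0.029), and in DKO with the 25th percentile pseudocount (0.0075) and the replicate block (0.0088); its DKO change was -0.25 to 0.42 with single arrays left out. Mrc1 changed sign in Ihh KO without the array labelled Ihh KO 4 (-0.088) and was -0.13 to 0.18 there, and -0.44 to 0.053 in DKO, with single arrays left out. The DKO count over all genes was 374, and 594 with all 8 controls, 79 with only the set, 225 with median centring and 246 at the 60th percentile; it was 128 without DKO 3, 228 without DKO 2, 243 without control 1, 197 without control 3 and 503 without control 4. Without DKO 3 and without control 4, the DKO effect minus the Ihh KO effect had 0 and 274 genes called (49 with all arrays), and minus the Dhh KO effect 23 and 304 (75). A replicate block shared by DKO and Dhh KO arrays, chosen after seeing the data (correlation 0.21), left 0 members called in the last difference, among 219 genes (1.77%). Without control 8, 7 genes were called in Dhh KO and 58 in Ihh KO, where 2 were called with all arrays, 48 without the array labelled Ihh KO 4 and 0 without any other single array. As a fixed term the replicate block could be fitted for DKO and for Ihh KO minus Dhh KO alone, since controls 5 to 8 share no number with the single knockouts; it changed no other count of members called. Few arrays limit these values.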
